A study of Mus musculus with 10 samples.

Results

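The genes described here are the numbered cadherins and the non-clustered protocadherins, calcium-dependent adhesion proteins of the cell surface. They were chosen by symbol, as every protein-coding gene named Cdh or Pcdh followed by digits, with the suffix x allowed, apart from the endothelial Cdh5. The protocadherins of the alpha, beta and gamma clusters were left out. This rule finds 34 of the 43629 gene identifiers in the count tables, 22 cadherins and 12 protocadherins. The question was which of these adhesion genes change when Dot1l, the gene of a histone H3 methyltransferase, is deleted in the embryonic cortex.

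Total RNA of the dorsal telencephalon, the tissue from which the cerebral cortex forms, was sequenced from 10 C57BL/6 mouse embryos at E14.5. The 5 control samples carry 1 floxed Dot1l allele (f/+) and no Cre. The 5 Dot1l-cKO samples carry a floxed allele on both chromosomes (f/f) and a Cre allele that is active in the forebrain. Controls were littermates, and each sample was a different animal. The mutants alone carry the Cre allele, so the effects of Dot1l loss and of that allele cannot be told apart in these samples. Levels are given as counts scaled to a library total of 1e+06 (CPM).

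Classical cadherins bind cadherins on the neighbouring cell through 5 extracellular repeats and are tied inside the cell to actin by beta- and alpha-catenin. Type I cadherins, such as N-cadherin (Cdh2), hold neuroepithelial cells together at the apical junctions, while type II cadherins mark subdivisions and circuits of the brain in overlapping patterns. Non-clustered protocadherins lack the catenin-binding tail. Those of the delta-1 and delta-2 subfamilies share conserved cytoplasmic motifs, and several bind the actin-regulating WAVE complex.

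Of the 34 genes, 31 had enough counts to be tested. By edgeR's quasi-likelihood test with Benjamini-Hochberg adjustment over 17039 genes, 7 of the 31 were higher in Dot1l-cKO at an adjusted p under 0.05 and none was lower. The 7 are Pcdh20, Cdh7, Cdh22, Pcdh17, Pcdh9, Pcdh7 and Pcdh15. The share called higher was 22.6%, against 5.67% of all genes tested. Of all genes tested, 1.44% were called lower. DESeq2 also called no member lower, and at an unadjusted p under 0.05 the edgeR test had 14 members higher and 2 lower, Cdh23 and Cdh24. These unadjusted counts carry no background share, since the shares above are for adjusted p. In 8 of the 31, which are the 7 called genes and Cdh18, all Dot1l-cKO samples lay above all controls, as they did for 6.17% of all genes tested. The reverse was the case for no member and for 2.17% of all genes.

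The log2 fold change was above 0 for 22 tested members and under 0 for 9. Its median over the 31 was 0.40, against -0.0056 over all genes tested. The summed level of the 34 genes was 1485 ± 116 CPM over the 5 controls and 1693 ± 86.4 CPM over the 5 mutants (mean ± SD). Of the 12 protocadherins, 5 were called higher and 10 had a positive log2 fold change. Of the 19 cadherins tested, 2 were called higher and 12 had a positive log2 fold change. The plot of log2 fold changes by subfamily shows how unevenly these differences were spread. In this whole tissue, a change in the share of cells that express a gene and a change in its RNA per cell cannot be told apart.

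**Figure D1:**
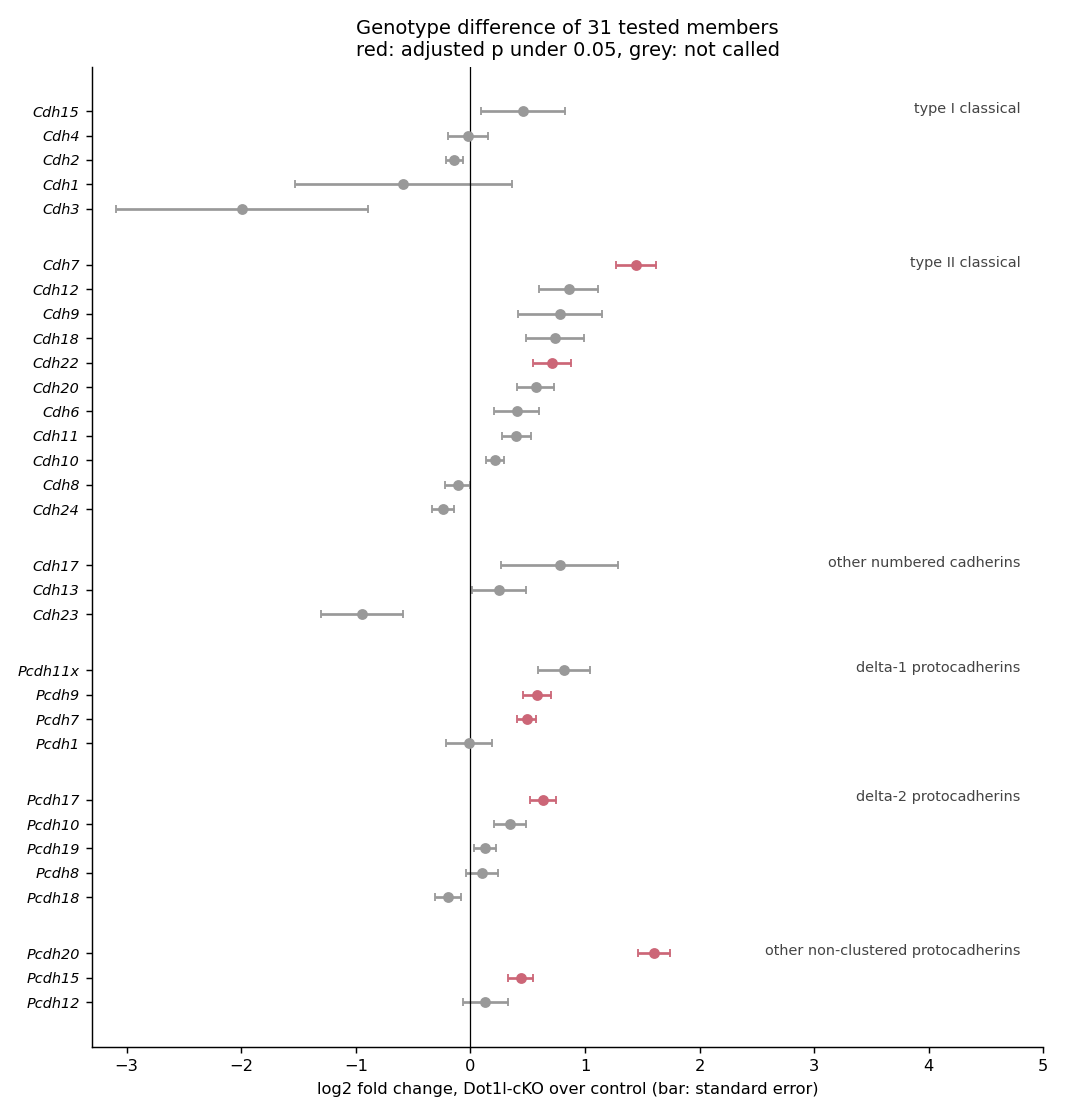
Log2 fold change of each of the 31 tested genes (horizontal axis, Dot1l-cKO over control, points with the edgeR standard error), grouped by subfamily. Red points are the 7 genes called higher, which lie between 0.44 and 1.60, and the widest bars belong to the scarce Cdh1 and Cdh3.

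The 10 libraries held between 54202349 and 66556034 counts. In the deposited normalised tables the column names open with a number that no source used here explains, and which a control and the mutant of the same replicate number share. The 4 libraries with the number 57, replicates 2 and 3 of both groups, stood apart. Mitochondrial rRNA made up 0.0471% to 0.492% of counts there, against 5.79% to 10.9% in the other 6. Results were therefore also computed within these 4 libraries and within the other 6, which carry 3 different numbers and are not 1 batch by any label. The targeted gene itself, Dot1l, lay between 31.4 and 41.5 CPM in controls. In Dot1l-cKO it was 42.3, 20.1, 39.6, 43.4 and 51.7 CPM in replicates 1 to 5, with a log2 fold change of 0.08 and an edgeR adjusted p of 0.864. The gene-level count sums all exons of Dot1l, so it is no check of the deletion. Whether the deleted part was missing from the reads was not tested. By qRTPCR the authors reported a significant loss of Dot1l mRNA in the mutant dorsal telencephalon at E14.5.

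On chromosome 14 lie 4 protocadherin genes, in the order Pcdh8, Pcdh17, Pcdh20 and Pcdh9, between 79766775 and 93890679 in GRCm38. Of the 7 protein-coding genes tested in this stretch, the 3 called higher were Pcdh17, Pcdh20 and Pcdh9. The other 3 neighbours were Olfm4 with a log2 fold change of 1.03 (edgeR adjusted p = 0.0867), Diaph3 with -0.25 (adjusted p = 0.172) and Tdrd3 with -0.02 (adjusted p = 0.892). Both ends of this stretch are protocadherins, so its count is no share for the region. In the wider region from Cdh24 to Pcdh9, 14 of 218 tested protein-coding genes were called higher and 4 lower. Over all genes tested these shares were 5.67% and 1.44%. Olfm4, Diaph3 and Tdrd3 lie between the 4 protocadherins, which are thus not all next to each other. The 250 bases before the start of each are shown, so that genes of the same stretch with and without a call can be compared. They come from RefSeq on GRCm38.p6, run 5′ to 3′ on the strand of the gene and end at the base before its start, and capitals mark CpG dinucleotides.
Pcdh8: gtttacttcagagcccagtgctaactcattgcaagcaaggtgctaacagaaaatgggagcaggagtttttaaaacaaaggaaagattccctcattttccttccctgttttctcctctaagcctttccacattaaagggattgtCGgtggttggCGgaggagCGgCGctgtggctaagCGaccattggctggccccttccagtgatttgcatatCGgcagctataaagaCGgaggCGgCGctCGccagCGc
Pcdh17: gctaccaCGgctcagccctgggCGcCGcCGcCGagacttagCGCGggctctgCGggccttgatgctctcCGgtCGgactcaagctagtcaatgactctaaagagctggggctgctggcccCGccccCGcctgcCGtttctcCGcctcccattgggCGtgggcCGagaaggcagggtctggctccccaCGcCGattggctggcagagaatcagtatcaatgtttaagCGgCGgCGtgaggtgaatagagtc
Pcdh20: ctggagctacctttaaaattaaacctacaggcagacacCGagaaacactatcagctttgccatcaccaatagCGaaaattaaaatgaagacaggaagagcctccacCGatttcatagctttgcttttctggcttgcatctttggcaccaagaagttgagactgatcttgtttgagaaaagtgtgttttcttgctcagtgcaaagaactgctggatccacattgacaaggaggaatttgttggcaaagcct
Pcdh9: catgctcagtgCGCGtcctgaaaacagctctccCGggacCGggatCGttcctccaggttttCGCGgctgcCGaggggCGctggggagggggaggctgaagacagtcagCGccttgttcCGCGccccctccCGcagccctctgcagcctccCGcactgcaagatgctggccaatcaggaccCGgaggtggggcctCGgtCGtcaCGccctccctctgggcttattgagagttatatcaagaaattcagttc
They lie at chr14:79771313-79771562 (minus strand), chr14:84443313-84443562 (plus strand), chr14:88471397-88471646 (minus strand) and chr14:93890680-93890929 (minus strand).

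The sequences differ in base composition. The Pcdh20 promoter had a GC content of 42.4% and 3 CpG, while those of Pcdh17 and Pcdh9 had 64.8% and 63.6% with 21 and 18 CpG. The promoter of the uncalled Pcdh8 had 51.2% and 11 CpG, and the median over 32851 mouse promoters was 52.4% and 6 CpG. A CCAAT box (CCAAT on either strand) was present in all 4, and in 33.8% of all promoters. A GC box (GGGCGG on either strand, which includes a CpG) was present in that of Pcdh17 alone, and in 32.7% of all promoters. A TATA box (TATAAA on either strand) was present in that of Pcdh8 alone, and in 12.4% of all promoters. Among the 22 members with a promoter entry, which were counted on the first entry of each gene, a CCAAT box was found in 5 of the 7 called and in 8 of the 14 tested and not called, and a GC box in 2 and 7. A match is a string of letters and not a site shown to be bound.

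Pcdh20, a protocadherin outside the delta subfamilies, showed the largest rise among the 31 genes. Its level in controls 1 to 5 was 15.3, 15.7, 13.2, 11.2 and 10.8 CPM. In Dot1l-cKO 1 to 5 it was 48.9, 43.7, 38.7, 31.8 and 38.3 CPM. Every mutant sample lay far above the highest control, and the groups did not overlap. The means were 13.3 ± 2.25 and 40.3 ± 6.42 CPM (SD, n = 5 each), which is a 3.04-fold rise, or 1.60 ± 0.14 on the log2 scale (± SE), at an edgeR adjusted p of 0.000153. Pcdh20 (ENSMUSG00000050505) is also the second shortest of these genes, at 6.65 kb from 88464743 to 88471396 on chromosome 14.

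Pcdh17, a delta-2 protocadherin of the same stretch that is known from axon growth and synapses, also rose. Its control samples 1 to 5 had 42.3, 45.7, 39.1, 34.5 and 51.2 CPM. The Dot1l-cKO samples 1 to 5 had 66.2, 55.2, 74.8, 63.3 and 71.6 CPM. The mutant closest to the controls was replicate 2, still above control 5, the highest control. On the log2 scale the rise was 0.64 ± 0.11 (± SE, edgeR adjusted p = 0.00673). Pcdh9, a delta-1 protocadherin expressed in neurons, was among the most abundant genes of the family and rose as well. In controls 1 to 5 it had 94.2, 78.8, 69.4, 94.9 and 116 CPM. In Dot1l-cKO 1 to 5 it had 131, 128, 131, 144 and 145 CPM. Control 5 came closest to the mutants, which were tightly grouped, and the groups did not overlap. The rise on the log2 scale was 0.58 ± 0.12 (± SE, edgeR adjusted p = 0.0142).

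The remaining member of the stretch, the delta-2 protocadherin Pcdh8, known as an activity-regulated synaptic protein, did not pass the test. Its control values were 48.1, 51.6, 45.5, 55.7 and 72.0 CPM in replicates 1 to 5. Its Dot1l-cKO values were 58.8, 44.3, 61.4, 65.3 and 63.1 CPM. The groups overlapped over most of their range, with a log2 fold change of 0.10 and an edgeR adjusted p of 0.735. Mutant replicate 2 was the lowest of all 10 samples.

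Pcdh7 and Pcdh15 were the other protocadherins called. Pcdh7, a delta-1 protocadherin, measured 78.1, 80.5, 69.3, 61.9 and 83.2 CPM in controls 1 to 5. It measured 109, 101, 106, 100.3 and 108 CPM in Dot1l-cKO 1 to 5. The mutant samples differed by less than 10 CPM among themselves, and all lay above the controls. Expressed in log2, Pcdh7 rose by 0.49 ± 0.08 (± SE, edgeR adjusted p = 0.00517). An RNA gene on the opposite strand, 4932441J04Rik, shares 2235 bases of exon with Pcdh7. Counting was by strand, and that gene averaged 1.18 CPM against 89.8 CPM for Pcdh7. It was itself called higher in Dot1l-cKO, with a log2 fold change of 0.72 (edgeR adjusted p = 0.0425).

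Pcdh15, a part of the tip links of inner-ear hair cells, was scarce here, with 4.58, 3.88, 5.06, 4.90 and 4.53 CPM in controls 1 to 5. In Dot1l-cKO 1 to 5 it had 6.34, 5.86, 6.14, 5.96 and 6.81 CPM. Small as the rise was, the groups did not overlap. In log2 terms Pcdh15 rose by 0.44 ± 0.11 (± SE, edgeR adjusted p = 0.0302). This call was the least stable of the 7. It was lost when control 1, 2 or 4 or Dot1l-cKO 1, 3, 4 or 5 was left out, with adjusted p from 0.0534 to 0.0758, and also without the low-count filter and with Xist as a covariate.

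Pcdh11x, the X-linked delta-1 protocadherin, had a larger log2 fold change than Pcdh7 and Pcdh9 but a wider spread. Its controls 1 to 5 had 19.0, 18.1, 12.2, 12.9 and 30.6 CPM. Its Dot1l-cKO samples 1 to 5 had 40.9, 32.9, 34.0, 28.1 and 27.9 CPM. Control 5 was above mutants 4 and 5, the only overlap between the groups. Its log2 fold change was 0.82 ± 0.23 (± SE, edgeR adjusted p = 0.0564). With the replicate number as a block the adjusted p was 0.0399, and without control 5 it was 0.00455. The last delta-1 gene, Pcdh1, had a log2 fold change of -0.01 (adjusted p = 0.984).

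**Figure D2:**
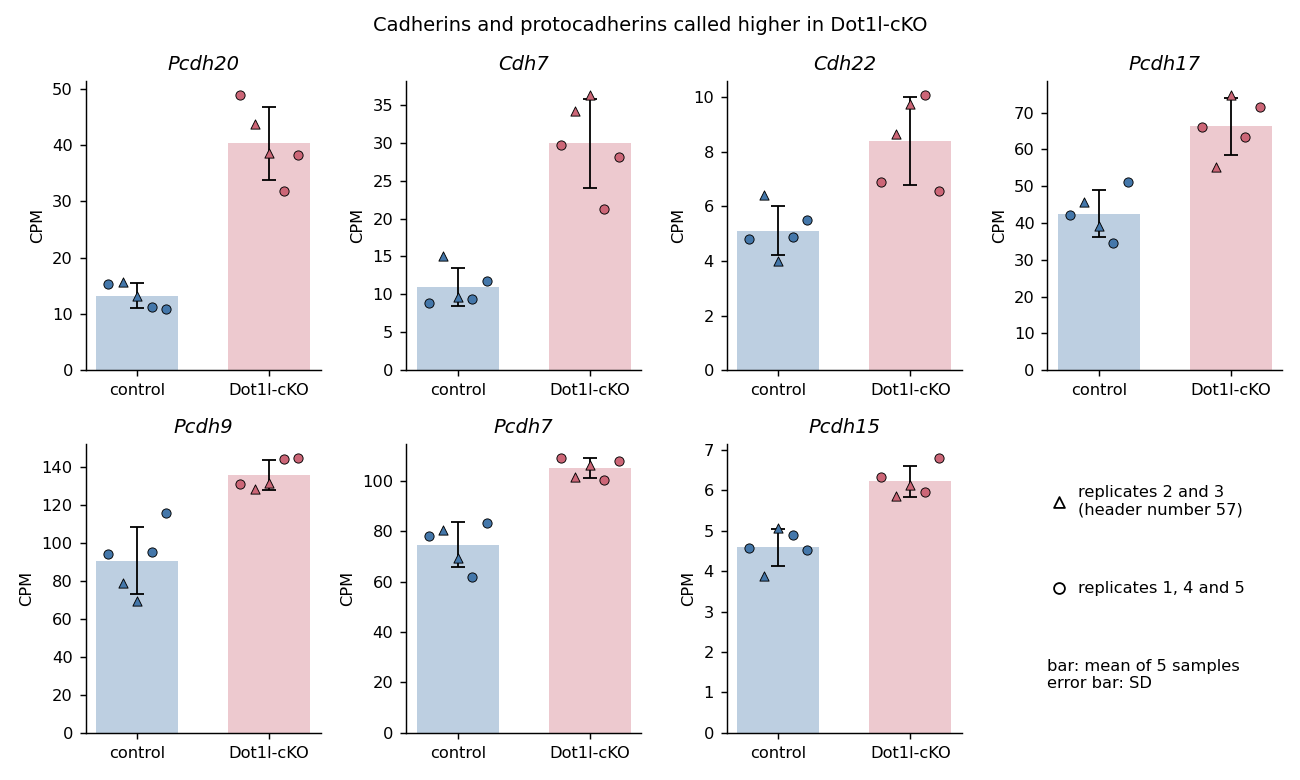
CPM of the 7 genes called higher (vertical axes, each from 0), by sample, with bars for the mean of 5 and error bars for the SD. Triangles are replicates 2 and 3, the libraries with low mitochondrial rRNA, and in every panel all 5 Dot1l-cKO samples lie above all 5 controls.

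Among the delta-2 protocadherins other than Pcdh17 and Pcdh8, no member passed the test. Pcdh10, also called OL-protocadherin, is known from axon pathways of the forebrain. Its controls 1 to 5 had 103, 85.9, 70.0, 115 and 118 CPM. Its Dot1l-cKO samples 1 to 5 had 138, 105, 136, 130.4 and 116 CPM. Mutants 2 and 5 lay within the control range, and the log2 fold change was 0.34 with an edgeR adjusted p of 0.194. Pcdh19, the X-linked gene mutated in a form of epilepsy, measured 88.1, 78.8, 85.9, 82.1 and 99.6 CPM in controls 1 to 5. In Dot1l-cKO 1 to 5 it measured 90.3, 79.4, 111, 97.9 and 95.9 CPM. The ranges overlapped over most of their width, with a log2 fold change of 0.13 (adjusted p = 0.509). Pcdh18 measured 83.5, 71.0, 79.6, 63.7 and 74.1 CPM in controls 1 to 5. In Dot1l-cKO 1 to 5 it measured 69.3, 53.2, 59.3, 61.3 and 81.7 CPM. It was lower in 4 of 5 mutants than in the control of the same number, with a log2 fold change of -0.19 and an edgeR adjusted p of 0.393. Pcdh12, an endothelial protocadherin, had a log2 fold change of 0.13 (adjusted p = 0.766).

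The type II cadherins gave 9 positive log2 fold changes among 11 tested, with a median of 0.57 and 2 calls. Cdh7 rose most. Cadherin-7 is known from neural crest and from subsets of brain neurons. Controls 1 to 5 had 8.89, 15.1, 9.70, 9.37 and 11.8 CPM. Dot1l-cKO 1 to 5 had 29.7, 34.3, 36.3, 21.2 and 28.1 CPM. The lowest mutant, replicate 4, was still well above control 2, the highest control. The means were 10.98 ± 2.56 and 29.9 ± 5.90 CPM (SD, n = 5 each), which is a 2.72-fold rise, or 1.45 ± 0.18 on the log2 scale (± SE), at an edgeR adjusted p of 0.000820. Cdh7 (ENSMUSG00000026312) lies on chromosome 1 from 109982431 to 110140157.

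Cdh22, a type II cadherin first described in the pituitary and brain, was the second call of that subfamily. It had 4.78, 6.40, 4.00, 4.86 and 5.49 CPM in controls 1 to 5. It had 6.89, 8.64, 9.75, 10.1 and 6.56 CPM in Dot1l-cKO 1 to 5. Control 2 and mutant 5 almost met, without overlap. In log2 terms the rise of Cdh22 was 0.72 ± 0.16 (± SE, edgeR adjusted p = 0.0239). The call was lost without control 1, control 4, Dot1l-cKO 3 or Dot1l-cKO 4, with adjusted p from 0.0624 to 0.0676.

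A further 3 type II cadherins had an adjusted p under 0.1. Cdh20, which like Cdh7 lies on chromosome 1, had 3.54, 5.79, 4.46, 4.05 and 3.15 CPM in controls 1 to 5. It had 5.94, 7.06, 6.07, 5.70 and 6.40 CPM in Dot1l-cKO 1 to 5. Only control 2 overlapped with the mutants. Its log2 fold change was 0.57 ± 0.16 (± SE, edgeR adjusted p = 0.0571), and the adjusted p became 0.0336 with the replicate block and 0.0145 without control 2. Cdh12, found in neurons of the brain, had 11.3, 7.37, 5.07, 11.4 and 10.6 CPM in controls 1 to 5. It had 23.4, 12.9, 17.9, 17.8 and 10.9 CPM in Dot1l-cKO 1 to 5. The mutants spread widely and replicate 5 lay within the controls, with a log2 fold change of 0.86 and an edgeR adjusted p of 0.0704. Cdh11, the abundant cadherin of mesenchyme that neurons also make, had 75.1, 58.0, 83.0, 64.2 and 85.1 CPM in controls 1 to 5. It had 103, 86.1, 90.2, 84.9 and 118 CPM in Dot1l-cKO 1 to 5. Control 5 lay just above mutant 4, and each mutant was above the control of the same number. The log2 fold change was 0.40 with an edgeR adjusted p of 0.0883, which became 0.0163 with the replicate block. With that block 10 members were called higher, against 6.51% of all genes tested, and none was called lower, against 2.91%.

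The other type II cadherins did not pass the test. Cdh6, a marker of cortical areas and borders, had a log2 fold change of 0.41 (edgeR adjusted p = 0.273), Cdh10 had 0.22 (0.136) and Cdh8 had -0.11 (0.628). Cdh9 and Cdh18 were scarce, at 1.21 ± 0.705 and 1.96 ± 0.670 CPM in controls (SD, n = 5 each), with log2 fold changes of 0.78 (adjusted p = 0.260) and 0.74 (0.116). Cdh24 was the type II gene with the most negative value, -0.24 (adjusted p = 0.189). Cdh6, Cdh9, Cdh10, Cdh12 and Cdh18 are the only tested protein-coding genes in 13028701 to 23474418 of chromosome 15. All 5 had positive log2 fold changes and none was called. Chromosome 8, with 7 members the largest such group, was mixed. There Cdh11, Cdh13 and Cdh15 had positive values, Cdh1, Cdh3 and Cdh8 had negative ones, and Cdh16 was not tested.

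Among type I cadherins none was called. Cdh2, which encodes N-cadherin, the main cadherin of neural progenitors and neurons, was the most abundant gene of the 34. Controls 1 to 5 had 431, 484, 467, 425 and 418 CPM. Dot1l-cKO 1 to 5 had 367, 431, 445, 395 and 381 CPM. Every mutant was below the control of the same number, but the groups overlapped, and the log2 fold change was -0.14 ± 0.07 (± SE, edgeR adjusted p = 0.326). Cdh4, or R-cadherin, ranked next. Its controls 1 to 5 had 123, 100.4, 93.4, 151 and 156 CPM. Its Dot1l-cKO samples 1 to 5 had 129, 87.2, 123, 154.2 and 123 CPM. The ranges were nearly the same, with a log2 fold change of -0.02 (adjusted p = 0.970). The values of Cdh4 were higher in replicates 4 and 5 than in 2 and 3 of the controls. Cdh15, the cadherin of muscle, stayed under 1 CPM in every sample, with a log2 fold change of 0.46 (adjusted p = 0.535).

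The epithelial cadherins Cdh1 (E-cadherin) and Cdh3 (P-cadherin) were scarce and uneven. Cdh1 had 0.523, 0.210, 5.00, 0.327 and 1.08 CPM in controls 1 to 5. The mutants had 1.92, 0.104, 0.7003, 0.151 and 1.92 CPM in replicates 1 to 5, highest in 1 and 5. Cdh3 had 2.61, 0.193, 3.19, 0.0934 and 0.161 CPM in controls 1 to 5. Its values in mutants 1 to 5 were 0.434, 0.0347, 0.140, 0.0302 and 0.918 CPM. Both genes were highest in control 3, where 6 epithelial markers summed to 14.03 CPM, against 0.934 to 5.37 CPM in the other controls and 2.28 to 3.67 CPM in Dot1l-cKO. Among the mutants the order differed, since Dot1l-cKO 2 had a marker sum of 3.66 CPM with Cdh1 at 0.104 CPM, and Dot1l-cKO 1 had a sum of 2.89 CPM with Cdh1 at 1.92 CPM. Cdh3 was nearly as high in control 1. The 8 choroid plexus and hem markers summed to 7.04 to 689 CPM in controls and 12.8 to 187 CPM in Dot1l-cKO. Among them Ttr, named after its values were seen, had 498 and 575 CPM in controls 1 and 3. It had 0.234 to 1.61 CPM in the other controls and 132 CPM in Dot1l-cKO 5, the highest mutant. Otx2 differed, with 9.67 CPM in control 2. The 10 mesenchyme, meninges and mural markers also varied, with sums of 103 to 953 CPM in controls and 93.3 to 893 CPM in Dot1l-cKO. The part of epithelium, of choroid plexus and of mesenchyme in the Cdh1 and Cdh3 values was not tested. The log2 fold changes were -0.59 for Cdh1 (edgeR adjusted p = 0.783) and -1.996 for Cdh3 (0.346), and without control 3 they were 0.83 and -1.26. Without Dot1l-cKO 5 that of Cdh3 was -2.99 (adjusted p = 0.203).

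The other numbered cadherins include proteins without the classical layout. Cdh13, or T-cadherin, is anchored by a lipid and has no cytoplasmic tail. Its controls 1 to 5 had 111, 68.8, 71.0, 129 and 144 CPM. Its Dot1l-cKO samples 1 to 5 had 148, 86.4, 101, 162 and 127 CPM. In both groups replicates 2 and 3 were the lowest, which are the libraries with low mitochondrial rRNA. The log2 fold change was 0.25 with an edgeR adjusted p of 0.606. Cdh23, the partner of Pcdh15 in hair-cell tip links, had a log2 fold change of -0.95 (adjusted p = 0.158), opposite in sign to that of Pcdh15. Cdh17, a cadherin of intestine, had 0.78 (adjusted p = 0.442) and stayed under 1 CPM, and without control 3 it had 1.49 (adjusted p = 0.0508). Without control 2 the value of Cdh23 was -0.50. The kidney cadherin Cdh16, the glial Cdh19 and the epithelial Cdh26 had at most 1, 13 and 16 counts in any library and were not tested.

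Levels were compared between genes as CPM per kilobase of exon. In controls the 34 genes spanned from 55.2 for Cdh2 down to 0 for Cdh16. After Cdh2 came Cdh4 at 17.2 ± 3.92, Pcdh18 at 13.9 ± 1.44, Pcdh9 at 13.4 ± 2.61 and Pcdh8 at 12.02 ± 2.30 CPM per kb (SD, n = 5 each), neighbours whose ranges overlapped. Of the 7 called genes, 2 were among the 10 most abundant, Pcdh9 and Pcdh7. In Dot1l-cKO the mean for Pcdh9 was 20.01 ± 1.16 and that for Cdh4 was 17.0 ± 3.30 CPM per kb. Pcdh20 went from 2.41 ± 0.410 to 7.33 ± 1.17 and Cdh7 from 1.09 ± 0.255 to 2.98 ± 0.588 CPM per kb (SD, n = 5 each).

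**Figure D3:**
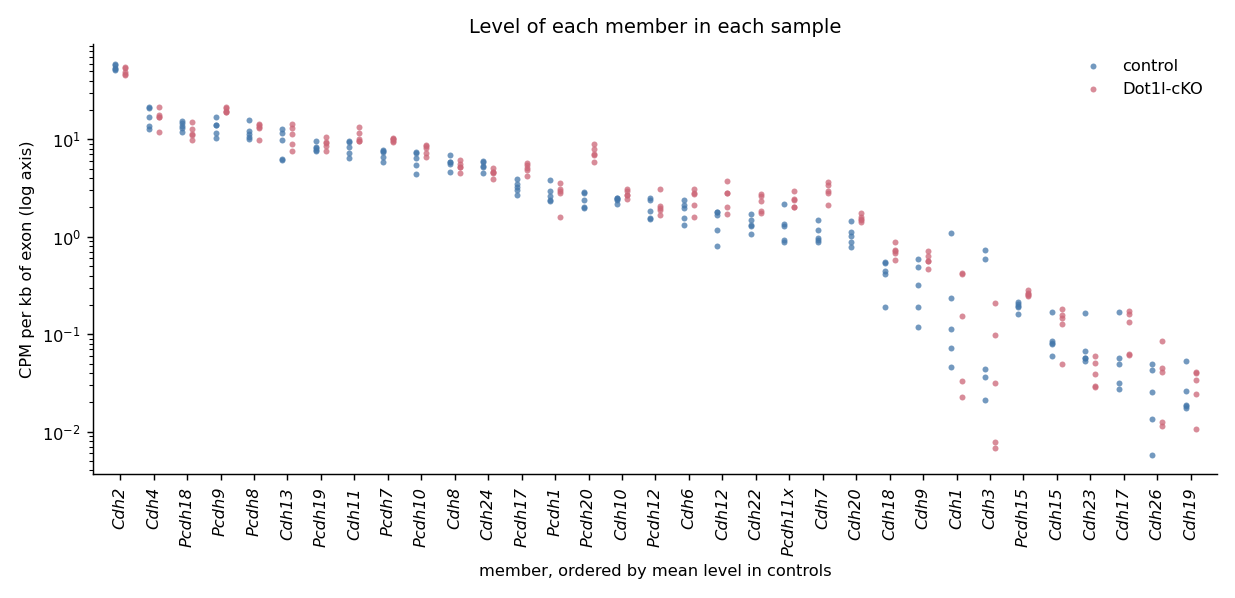
CPM per kilobase of exon (log axis) of each gene in each of the 10 samples, ordered by the mean level in controls. Cdh2 stands above all others at 55.2 CPM per kb, and Pcdh20 and Cdh7 show the clearest gap between controls and Dot1l-cKO. Cdh16, with 0 counts in all controls, is not drawn.

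By subfamily, the summed level of the type II cadherins was 195 to 241 CPM in controls and 259 to 286 CPM in Dot1l-cKO. That of the delta-1 protocadherins was 172 to 263 CPM in controls and 276 to 311 CPM in Dot1l-cKO. That of Pcdh12, Pcdh15 and Pcdh20, which belong to no delta subfamily, was 25.3 to 33.6 and 49.8 to 67.9 CPM. None of these 3 pairs of ranges overlapped, and the sums carry no test and no background share. Each of the 3 sums includes called genes. In the last, the mean of Pcdh20 went from 13.3 to 40.3 CPM and that of Pcdh12 from 11.9 to 13.0 CPM. The type I sum, which is mostly Cdh2, was 557 to 585 CPM in controls and 498 to 569 CPM in Dot1l-cKO. The delta-2 sum was 320 to 415 against 337 to 442 CPM. Many of these genes are long. The median span of the 31 was 145 kb, against 20.8 kb for all genes tested, and 4 of the 7 called genes were above the median of the 31.

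The genotype difference was next taken within each of these 2 sets of libraries. The difference in mean log2 CPM was above 0 in both sets for all 7 called genes. This sign was fixed in advance, since for these genes all Dot1l-cKO samples lay above all controls. The difference lay between 0.44 and 1.54 in the libraries with the number 57, 2 against 2. In the other 6, 3 against 3, it lay between 0.44 and 1.66. For Pcdh20 it was 1.51 and 1.66, and for Cdh7 1.54 and 1.39. Over the 31 genes, 26 had the same sign in both sets, against 64.8% of all genes tested. The 5 that did not were Cdh1, Cdh4, Cdh8, Pcdh1 and Pcdh12. The 26 include the 7 called genes and Cdh18, for which the agreement was fixed in advance. The share of all genes likewise includes genes without overlap, 6.17% with Dot1l-cKO higher and 2.17% with it lower. Tested within the larger set alone, Pcdh20, Cdh7, Pcdh17, Pcdh7 and Cdh20 were called higher, 5 of 31 where 3.41% of all genes were. Within the smaller set 1 gene was called in all and no member.

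**Figure D4:**
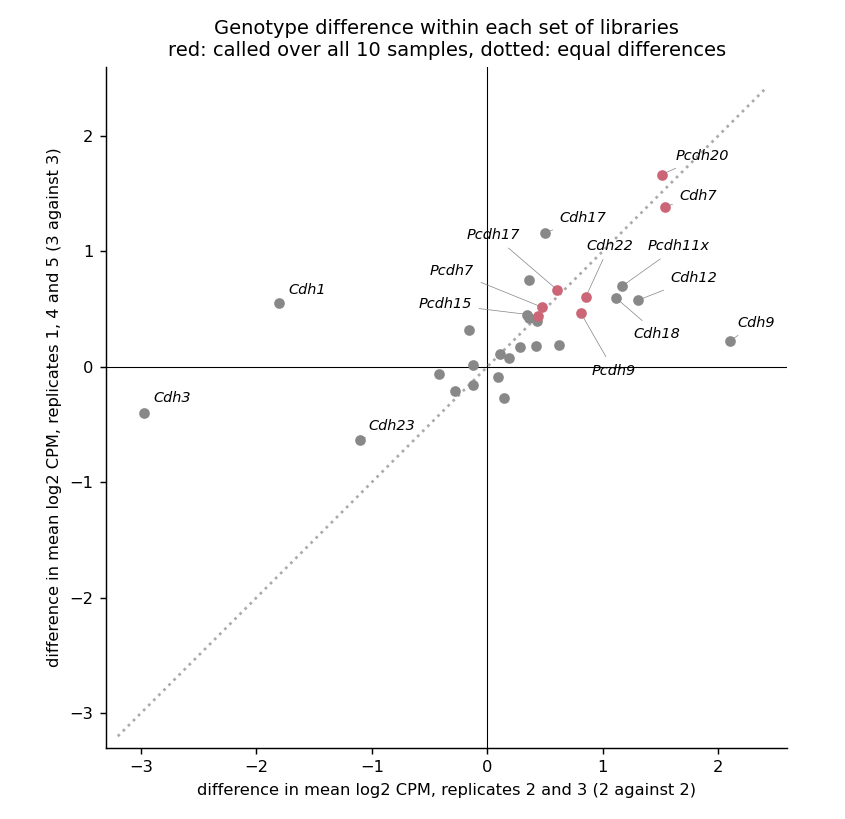
Difference in mean log2 CPM, Dot1l-cKO minus control, within replicates 2 and 3 (horizontal axis) and within replicates 1, 4 and 5 (vertical axis) for the 31 tested genes. The 7 red points, the genes called over all samples, all lie where both differences are above 0, with Pcdh20 and Cdh7 farthest out. The sign of these points follows from the lack of overlap between their groups.

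The genes of proteins that cadherins work with showed no call in the edgeR test without a block. Of 12 catenins and junction adaptors none was called, with a median log2 fold change of 0.01. At an unadjusted p under 0.05 there was 1, Jup (plakoglobin), named after its value was seen, with a log2 fold change of 0.32 (adjusted p = 0.155). Beta-catenin (Ctnnb1), which links classical cadherins to alpha-catenin, had 1829 ± 131 CPM over the 5 controls and 1917 ± 199 CPM over the 5 mutants (mean ± SD, edgeR adjusted p = 0.713). DESeq2 called none of the 12.

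Of the 4 nectins, the 8 enzymes that cleave cadherins and the 11 WAVE complex genes and protocadherin partners, none was called by edgeR or DESeq2 and none had an unadjusted p under 0.05. Of 7 Snail, Zeb and Twist factors, known as repressors of the E-cadherin gene, 5 were tested and none was called by edgeR. Zeb1 had a log2 fold change of -0.26 with an unadjusted p of 0.0132 (adjusted p = 0.113) and was called lower by DESeq2. Of 23 other genes of the cadherin superfamily, such as Fat, Dchs, Celsr and calsyntenin genes, 16 were tested and none was called by edgeR without a block or by DESeq2. At an unadjusted p under 0.05, Clstn2 had 0.40 and Fat1 had -0.34, and with the replicate block edgeR called Clstn2 higher (adjusted p = 0.0347). Zeb1, Clstn2 and Fat1 are named after their values were seen. Over all genes it tested, DESeq2 called 6.98% higher and 3.43% lower, and of the cadherins and protocadherins 10 higher, the 7 called by edgeR with Cdh12, Cdh20 and Pcdh11x.

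Markers of other cells moved with genotype beside these results. All 7 dorsal telencephalon markers examined had enough counts to be tested, with sums of 1279 to 1512 CPM in controls and 1409 to 1595 CPM in Dot1l-cKO. Pax6 was called lower. Emx1 and Emx2 had log2 fold changes of -0.29 and -0.52 at an unadjusted edgeR p under 0.05 (adjusted p = 0.175 and 0.193). The other 4 had positive log2 fold changes. Of 6 Cajal-Retzius markers, all 6 had positive log2 fold changes and 3 (Lhx5, Ndnf and Calb2) were called higher, with sums of 401 to 617 CPM in controls and 613 to 1180 CPM in Dot1l-cKO. Of 5 microglia markers all 5 were called higher, with sums of 23.9 to 39.8 and 47.9 to 69.0 CPM. Of 12 ventral and interneuron markers, 11 were tested, all 11 had negative values and Lhx6 was called lower, with sums of 63.2 to 344 and 18.4 to 114 CPM, while Nkx2-1 was too scarce to test. Of 6 progenitor markers, 2 had positive log2 fold changes, Vim and Fabp7, which were called higher, and 4 had negative ones. Among the 4, Sox2 had -0.38 (edgeR adjusted p = 0.0639) and was called lower by DESeq2 and with the replicate block (adjusted p = 0.00906). Of 5 thalamic markers 3 were tested. Lhx9 was called higher with a log2 fold change of 0.77, while Tcf7l2 had -1.15 (edgeR adjusted p = 0.112) and was called lower by DESeq2. Of the endothelial, mesenchymal, choroid plexus, neuronal, epithelial and erythroid markers none was called by edgeR. Among these lists, 2 neuronal markers had an unadjusted p under 0.05, Rbfox3 with a log2 fold change of -0.36 and Neurod2 with 0.34, and Neurod2 was called higher by DESeq2 and with the replicate block (adjusted p = 0.0206). The part of these cells in the cadherin and protocadherin differences was not tested.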

How the data were processed

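RNA-seq of E14.5 dorsal telencephalon was examined for 5 control and 5 Dot1l-cKO samples, grouped and numbered by their titles. The authors made stranded, rRNA-depleted paired-end libraries, trimmed reads with TrimGalore 0.2.8, mapped them to mm10 with TopHat2 2.0.9 and counted them per Ensembl gene with HTSeq 0.6.0, reverse-stranded. The deposited raw tables hold counts. The other deposited tables hold signal values, the same counts divided by the DESeq2 1.6.1 size factor of the sample. Counts were used throughout, except in the limma alternative.

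Symbols, coordinates and exon lengths came from a GENCODE annotation of GRCm38, which matched 42462 of 43629 identifiers. Identifiers without a symbol held 0.268% of counts. Genotypes were compared by edgeR 4.0.16 under R 4.3.3 (filterByExpr, TMM, quasi-likelihood test, no covariate) over all genes, with Benjamini-Hochberg adjustment, and called at an adjusted p under 0.05. CPM use TMM-scaled library sizes. The standard error is the log2 fold change divided by the square root of F and is approximate. Log2 CPM used a prior count of 2. The fits were tested on simulated counts.

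The members and lists were chosen with earlier results of these data known. Called members, and members among the 10 most abundant in controls per kilobase, were given in every sample, and those with an adjusted p under 0.1 were named. Called genes of the partner and marker lists were named as well.

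Samples of the same replicate number deviated together, with correlations over genes of 0.131 to 0.597 for the 5 pairs, so the number was also used as a block. For replicates 2, 3 and 5 a sample of another number correlated at least as highly (0.350, 0.446 and 0.446). Libraries were also split into the 4 with header number 57 and the other 6, which hold 3 header numbers. The other alternatives were DESeq2 1.42.0, its size factors in edgeR, no low-count filter, at least 10 counts in every sample, this split as a block, either set alone, Xist as a covariate, limma 3.58.1 on log2(normalised count + 1), an adjusted p under 0.01, and each sample left out. No pair of replicates agreed within sampling noise (chi-square per degree of freedom at least 30.8). Reads carried no molecular identifiers, so precision from counts covers counting error only. The promoter bases are those of RefSeq on GRCm38.p6. Exon-level reads were not used here. A gene of the marker lists is not reported here.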

Additional observations from a re-analysis of the deposited data

Results flagged for a closer look

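In 5 of 62 groups examined (31 genes in each genotype), a single sample lay far from the other 4, with a gap of more than 0.71 of the whole range in log2 CPM. Chance alone gives this in about 1 in 20 groups. Cdh23 in controls had a gap of 0.805 of the range, with control 2 at 2.81 CPM against a group median of 0.973 CPM. Cdh18 in controls had 0.734, with control 3 at 0.868 CPM against a median of 2.04 CPM. Pcdh8 in Dot1l-cKO had 0.730 and Pcdh1 in Dot1l-cKO had 0.716, both through Dot1l-cKO 2, at 44.3 CPM against a median of 61.4 CPM and at 13.9 CPM against 26.2 CPM. Cdh15 in Dot1l-cKO had 0.718, with Dot1l-cKO 5 at 0.161 CPM against a median of 0.473 CPM. None of the 5 genes was called between genotypes.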

How the results depend on the processing

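No member was called lower under any of the 11 alternatives or the 10 fits that left out a sample. The number of members called higher was 7 and became 11 with the split by header number 57 as a block (adding Cdh6, Cdh12, Cdh20 and Pcdh11x), 4 at an adjusted p under 0.01 and 0 within the 4 samples of header number 57. Leaving out each sample in turn gave between 5 and 8, and Pcdh20, Cdh7, Pcdh17, Pcdh9 and Pcdh7 were called in all 10 of these fits. With the replicate block it was 10, adding Cdh11, Cdh20 and Pcdh11x, and the block changed no other call of a member. Of all genes, 1212 were called, against 2011 by DESeq2, 745 within the 6 samples outside header number 57, 1 within the 4 samples with it and 495 at an adjusted p under 0.01. Leaving out each sample gave between 750 and 1357, the lowest without control 1. The smaller set compares 2 samples with 2, and the cause of its low count was not tested.

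Only members far from the threshold changed sign. The log2 fold changes of Cdh1 and Pcdh1 became 1.04 and 0.0031 within the 6 samples outside header number 57, and those of Cdh4, Cdh8 and Pcdh12 became 0.14, 0.16 and -0.18 within the other 4. With samples left out in turn, Cdh1 ranged from -1.01 to 0.83, Cdh4 from -0.11 to 0.082, Pcdh1 from -0.12 to 0.13 and Pcdh12 from -0.051 to 0.24. Dot1l was -0.37 within the 4 samples of header number 57 and -0.0058 with limma, and ranged from -0.046 to 0.25 with samples left out. Counting depth limits Cdh16, Cdh19 and Cdh26, which could not be tested.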
